A study of Homo sapiens with 29 samples.

Results

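Mitochondrial ribosomal protein genes were taken as the rows of the deposited table whose symbol begins with MRPL or MRPS followed by a number. The rule found 79 of 13492 rows. Of these, 77 are protein genes, 49 with an MRPL symbol (large subunit) and 28 with an MRPS symbol (small subunit). The remaining pair are MRPL23-AS1, an antisense transcript, and MRPS31P5, a transcribed pseudogene that can share reads with MRPS31, and neither is counted below. MRPL23-AS1 averaged 1.54 CPM with Helicon4 at 100 mpk and 1.86 CPM with vehicle, and MRPS31P5 averaged 1.61 CPM with Helicon4 at 100 mpk and 1.67 CPM with vehicle. All 77 protein genes passed the filter on low values, a CPM of at least 1 in at least 5 libraries, which left 13373 genes in all.

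The samples were xenograft tumors of COLO320DM, a human colorectal adenocarcinoma line known for amplified MYC, grown in mice that were randomised before dosing, and all libraries carry the time label 48 h. Tumors received Helicon4 at 100 mpk (5 libraries), Helicon4 at 30 mpk (6 libraries), Helicon4neg at 30 mpk (8 libraries) or vehicle (10 libraries). Helicon4 is a helicon peptide, named by the series for targeting β-catenin and TCF transcription factors. The labels give no structure for it or for Helicon4neg, and they do not spell out the dose unit, written mpk. The strain, sex and age of the mice were not given, all tumors came from a single cell line, and replicates are numbered without saying that each came from its own animal, so p-values measure the spread between these libraries, part of which may be technical.

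The mitochondrial ribosome translates the small set of messenger RNAs encoded by mitochondrial DNA, all for subunits of the respiratory chain and ATP synthase. Its RNAs come from mitochondrial DNA, whereas every protein of both subunits is encoded in the nucleus, made in the cytosol and imported. In colorectal cancer cells the MYC and β-catenin/TCF pathways drive growth, and MYC is known to raise the transcription of many nuclear genes for mitochondrial proteins. Proteins named MRPS18A and MRPS30 sit in the large subunit despite their symbols, and MRPS36 is now regarded as a component of the α-ketoglutarate dehydrogenase complex.

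Promoters of 4 members are shown because their genes carry the comparisons below: MRPS34 and MRPL12, which fell with Helicon4 at 100 mpk, MRPL3, an abundant large-subunit gene, and MRPL53, which fell with Helicon4neg. Each line gives the 250 bases before the RefSeq start (GRCh38.p14), 5′ to 3′ on the strand of the gene. Capitals mark matches, on either strand, to any of 4 searched motifs: CACGTG (an E-box, bound by MYC), the palindromic NRF1 core, ACTTCCGG (bound by ETS factors such as GABPA) and CTTTGAT or CTTTGAA (bound by TCF/LEF factors). The windows lie at chr16:1773135-1773384 (minus strand) for MRPS34, chr17:81703117-81703366 (plus strand) for MRPL12, chr3:131502972-131503221 (minus strand) for MRPL3 and chr2:74472681-74472930 (minus strand) for MRPL53.
MRPS34: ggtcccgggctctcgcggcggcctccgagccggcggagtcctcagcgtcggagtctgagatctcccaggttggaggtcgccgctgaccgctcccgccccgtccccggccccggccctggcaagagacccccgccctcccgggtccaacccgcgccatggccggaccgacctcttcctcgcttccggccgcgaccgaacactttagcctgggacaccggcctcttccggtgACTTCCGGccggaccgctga
MRPL12: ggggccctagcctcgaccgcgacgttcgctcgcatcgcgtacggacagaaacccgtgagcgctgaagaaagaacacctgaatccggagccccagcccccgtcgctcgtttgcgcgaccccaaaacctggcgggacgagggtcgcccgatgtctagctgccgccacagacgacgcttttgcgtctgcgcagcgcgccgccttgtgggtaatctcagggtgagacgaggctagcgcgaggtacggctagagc
MRPL3: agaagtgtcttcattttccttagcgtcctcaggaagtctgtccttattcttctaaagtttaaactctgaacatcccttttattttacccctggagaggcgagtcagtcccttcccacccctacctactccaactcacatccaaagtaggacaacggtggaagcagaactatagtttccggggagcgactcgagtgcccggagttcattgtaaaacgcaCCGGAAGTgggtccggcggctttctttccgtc
MRPL53: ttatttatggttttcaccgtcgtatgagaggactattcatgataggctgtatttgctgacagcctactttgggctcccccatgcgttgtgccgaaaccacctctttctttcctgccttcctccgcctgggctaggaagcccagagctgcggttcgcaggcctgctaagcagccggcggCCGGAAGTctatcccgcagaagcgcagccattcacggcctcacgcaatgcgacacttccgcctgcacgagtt
An ETS match begins at position -20 in MRPS34, -32 in MRPL3 and -72 in MRPL53, counted from the start. The MRPL12 window holds none of the searched letters.

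RefSeq promoter windows, counted over 250 bases before to 50 after the start, matched 68 of the 77 members by symbol. An ETS match was present in 11 members (16.2%), against 4.44% of 27305 promoters in the whole table. The NRF1 motif was present in 9 members (13.2%), against 8.78% of all promoters, and the E-box in 6 members (8.82%), against 7.43%. The TCF/LEF motif was present in 1 member (1.47%), against 6.98% of all promoters. A missing match says only that these letters are not in this window, and these shares were not tested.

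Whole-read totals recovered from the deposited values were 34.3 to 61.6 M reads with Helicon4 at 100 mpk, 40.8 to 48.6 M with Helicon4 at 30 mpk, 27.001 to 59.4 M with Helicon4neg and 26.8 to 60.9 M with vehicle. The colorectal markers CDX2, EPCAM, KRT8, KRT18 and MYC were present in every group on average, while CDX1, VIL1 and CDH1 had no row in the table. Host cells also contribute to a xenograft, but they are mouse cells and reads were aligned to the human genome. The marker rows below therefore need not measure host cells. A row was present for 4 of 9 fibroblast, 2 of 7 endothelial and 4 of 7 leukocyte markers. The endothelial markers PECAM1, CDH5, KDR, VWF and TEK had none. The summed endothelial markers, CLDN5 and EGFL7, were 23.9 to 39.2 CPM with Helicon4 at 100 mpk, 31.3 to 52.7 CPM with Helicon4 at 30 mpk, 40.0 to 146 CPM with Helicon4neg and 38.7 to 94.2 CPM with vehicle. In bulk tumor RNA, fewer cells of a type and less RNA per cell cannot be told apart. Which cells these reads came from, and their part in the results below, was not tested. The summed fibroblast markers were 41.1 to 49.97 CPM with Helicon4 at 100 mpk, 38.8 to 51.4 CPM with Helicon4 at 30 mpk, 23.3 to 44.8 CPM with Helicon4neg and 29.1 to 42.8 CPM with vehicle. These markers did not move together. COL1A1 averaged 21.4 CPM at 100 mpk and 12.3 CPM with vehicle, and PDGFRA 2.02 and 0.37 CPM. COL3A1 (11.3 and 11.9 CPM) and PDGFRB (9.71 and 12.1 CPM) were lower at 100 mpk. The leukocyte sums overlapped between all groups. The colorectal sum, most of it MYC, averaged 7569.8 CPM with Helicon4 at 100 mpk, 8253 CPM with Helicon4 at 30 mpk, 10872 CPM with Helicon4neg and 8693 CPM with vehicle. CDX2 averaged 2087 CPM at 100 mpk and 3135 CPM with vehicle, MYC 5161 and 5244 CPM, and KRT18 102 and 111 CPM. EPCAM (32.7 and 27.9 CPM) and KRT8 (187 and 175 CPM) were higher at 100 mpk. Helicon4neg library 2 stood apart in the members' level and in how its values depended on gene length. Vehicle library 6 had the highest member level and the most negative length slope of its group (-0.19, with -0.14 next) but did not stand apart in either, and counts without this pair are given beside the main ones.

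The level of the whole group was described by the mean of log2(CPM + 1) over the 77 genes in each library. It was 5.79, 5.86, 5.63, 5.74 and 5.67 in Helicon4 libraries 1 to 5 at 100 mpk. With Helicon4 at 30 mpk it ran from 5.50 to 5.77 (median 5.74), with Helicon4neg from 5.63 to 6.54 (median 5.73), and with vehicle from 5.66 to 6.36 (median 5.92). All 4 groups overlapped, and 7 of 10 vehicle libraries lay above every Helicon4 library. The members took 0.504 to 0.567% of reads with Helicon4 at 100 mpk, 0.450 to 0.539% with Helicon4 at 30 mpk, 0.482 to 0.782% with Helicon4neg and 0.488 to 0.727% with vehicle.

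**Figure D1:**
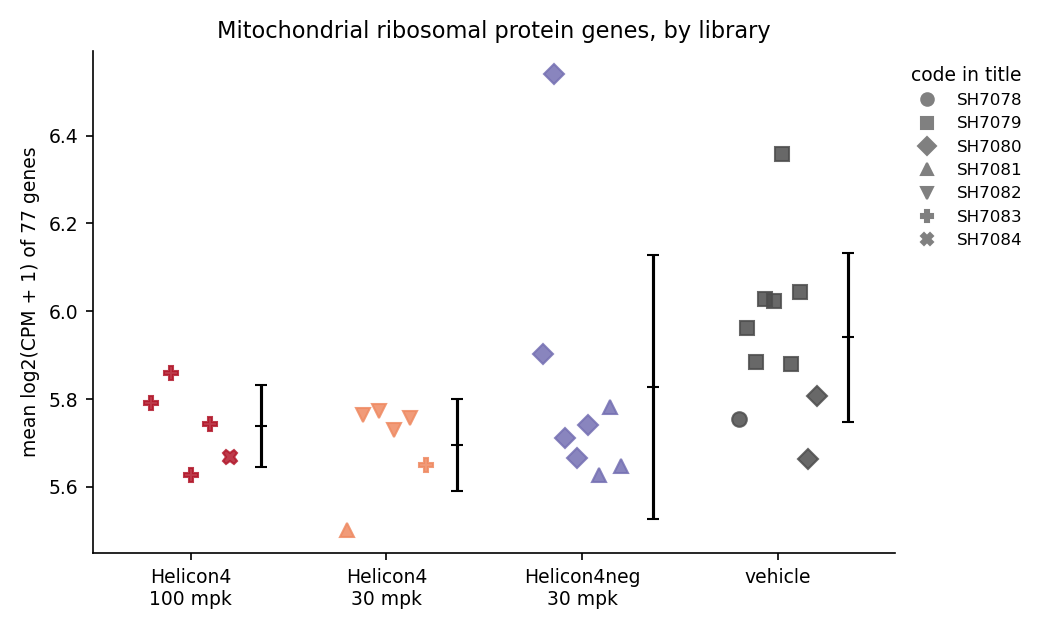
Mean log2(CPM + 1) of the 77 genes in each library (vertical axis), by group, with the group mean and SD as a black bar and the marker shape giving the SH code in the library's title. Helicon4neg library 2 (6.54) and vehicle library 6 (6.36) lie above all others, and the 7 vehicle libraries coded SH7079 lie between 5.88 and 6.36, above the other 3.

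Library titles carry an SH code whose meaning the labels do not state, and it moves with the groups. Vehicle libraries are coded SH7078 (1 library, level 5.76), SH7079 (7 libraries, 5.88 to 6.36) and SH7080 (2 libraries, 5.66 and 5.81), and no code holds both Helicon4 and vehicle. Within SH7080, members in the 5 Helicon4neg libraries differed from the 2 vehicle libraries by a median of 0.15 on the log2 scale, with 19 of 77 lower. Without Helicon4neg library 2 that median was -0.01, with 41 of 77 lower. Within SH7083, the 4 Helicon4 libraries at 100 mpk differed from the 1 library at 30 mpk by a median of 0.09, and within SH7081 the 1 Helicon4 library at 30 mpk differed from the 3 Helicon4neg libraries by -0.19. A code and a treatment therefore cannot be told apart for Helicon4 against vehicle.

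Among members, levels are compared per kilobase of the deposited gene length. In vehicle tumors the highest were MRPS34 at 222 CPM per kb, MRPL51 at 140 CPM per kb and MRPS26 at 125 CPM per kb, followed by MRPL14 at 88.8 CPM per kb and MRPL3 at 80.3 CPM per kb. The lowest were MRPL38 at 1.77 CPM per kb, MRPL46 at 1.80 CPM per kb and MRPL53 at 2.57 CPM per kb. MRPS34 averaged 244 ± 81.7 CPM and MRPL51 218 ± 66.0 CPM over the 10 vehicle libraries (SD), so the spread of each is a large part of its level. MRPL3 averaged 218 ± 25.1 CPM in the same libraries and was the steadier of these abundant genes. The 3 MRPS18 paralogs, which hold alternative forms of the same bacterial protein, averaged 3.12 (MRPS18C), 15.8 (MRPS18A) and 63.5 CPM per kb (MRPS18B) with vehicle.

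Helicon4 at 100 mpk was set against vehicle to ask how the members respond at the higher dose. Of the 77 members, 11 fell and 0 rose (limma, Benjamini-Hochberg adjusted over 13373 genes, threshold 0.05). That is 14.3% of members called in either direction, where 30.2% of all tested genes were called. Lower calls alone made up 14.3% of members and 15.9% of all genes, so in this fit the members' share was at or below the background. Members leaned downward all the same: 62 of 77 had a negative log2 fold change with a median of -0.21, where the median of all genes was 0.01. The medians were -0.21 for the 49 MRPL genes, of which 7 fell, and -0.20 for the 28 MRPS genes, of which 4 fell. Without Helicon4neg library 2 and vehicle library 6 22 members were lower and 2 higher, with a median of -0.16. That is 31.2% of members against 39.5% of all genes called in either direction, and 28.6% of members against 20.8% of all genes lower. The lower share was thus above the background there. It was also above it with the replicate block (20.8% of members, 17.9% of all genes), the compared groups alone (19.5% and 15.6%) and DESeq2 (18.2% and 16.95%). It was not with edgeR (12.99% and 15.7%), TMM factors (14.3% and 15.8%), a pseudocount of 0.1 (14.3% and 15.98%) or no filter (14.3% and 15.9%). Nor was it with the length slope (15.6% and 20.3%), the GC and length slopes (20.8% and 21.95%) or the SH code block (0% and 0.50%). These differences were not tested.

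**Figure D2:**
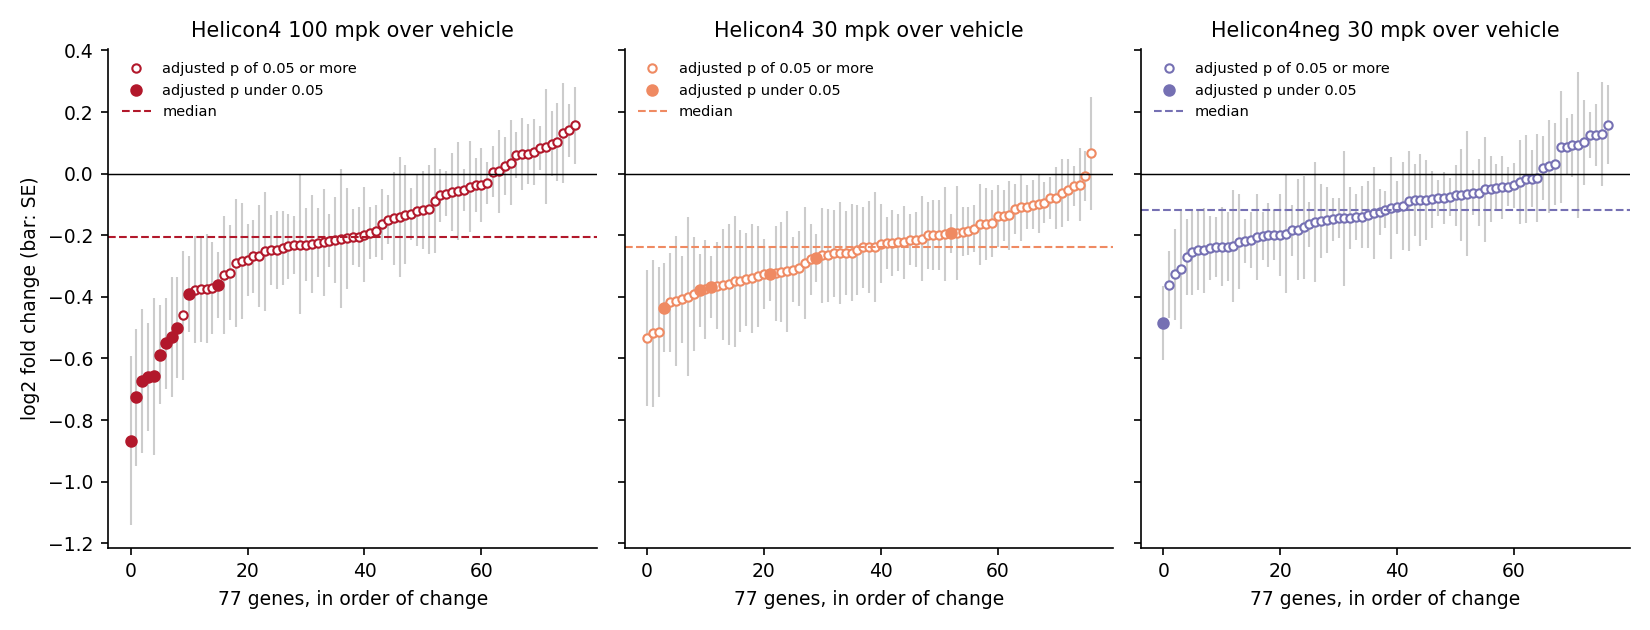
Log2 fold change over vehicle (vertical axis, bars are standard errors) of each of the 77 genes, in ascending order, with a panel for each Helicon4 dose and a panel for Helicon4neg. Filled points passed an adjusted p of 0.05, and the dashed medians are -0.21, -0.24 and -0.12.

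MRPL4, a large-subunit protein (chromosome 19, 10251901 to 10260045, GRCh38), had the smallest adjusted p. It had 63.2, 43.95, 43.5, 44.6 and 59.2 CPM in the 5 libraries of Helicon4 at 100 mpk, and 49.3 to 115 CPM (median 88.2) with vehicle. In 3 of the 5 treated libraries it was below every vehicle library, and the groups overlapped through libraries 1 and 5. The log2 fold change was -0.66 ± 0.18 (SE), with a limma adjusted p of 0.00486.

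MRPS2, a small-subunit protein (chromosome 9, 135499984 to 135504673), had 103, 68.1, 62.7, 73.1 and 83.6 CPM with Helicon4 at 100 mpk, and 79.4 to 135 CPM (median 125) with vehicle. MRPS26, also of the small subunit (chromosome 20, 3045945 to 3048254), had 113, 82.5, 76.5, 94.3 and 95.2 CPM with Helicon4 at 100 mpk, and 99.7 to 187 CPM (median 151) with vehicle. For both genes library 1 was the highest treated library, and it alone (with library 5 for MRPS2) reached into the vehicle range. The log2 fold changes were -0.55 ± 0.15 for MRPS2 (limma adjusted p = 0.00526) and -0.59 ± 0.16 for MRPS26 (limma adjusted p = 0.00604).

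MRPS34 (chromosome 16, 1771890 to 1773155), a small-subunit protein specific to mitochondrial ribosomes, had 168, 125, 121, 149 and 144 CPM with Helicon4 at 100 mpk, and 155 to 430 CPM (median 243) with vehicle. In 4 of the 5 treated libraries it was below every vehicle library. Its log2 fold change was -0.73 ± 0.22 (limma adjusted p = 0.0137).

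MRPL58 (chromosome 17, 75012670 to 75021261), also called ICT1, is a peptidyl-tRNA hydrolase built into the large subunit that releases stalled chains. It had 41.3, 47.8, 39.7, 46.6 and 41.3 CPM with Helicon4 at 100 mpk, and 44.9 to 71.8 CPM (median 54.98) with vehicle. In 3 of the 5 treated libraries it was below every vehicle library. The log2 fold change was -0.36 ± 0.11 (limma adjusted p = 0.00983), and this call and the 4 before it held when any 1 of the 29 libraries was left out.

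The largest fold change belonged to MRPL12 (chromosome 17, 81703357 to 81707526), a stalk protein of the large subunit that also binds the mitochondrial RNA polymerase. It had 20.3, 13.4, 10.7, 17.1 and 17.4 CPM with Helicon4 at 100 mpk, and 17.2 to 46.4 CPM (median 32.1) with vehicle. It was below every vehicle library in treated libraries 2, 3 and 4. The log2 fold change was -0.87 ± 0.27 (limma adjusted p = 0.0169), and without Helicon4 100 mpk library 3 the adjusted p was 0.0703. MRPL12 overlaps another annotated gene on its strand, so part of its reads may be uncertain.

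The other 5 members that fell are named although they lie outside the rule for named genes. They were MRPL34 (-0.39), MRPL2 (-0.50), MRPL41 (-0.67), MRPS12 (-0.53) and MRPL23 (-0.66), given as log2 fold changes, all large-subunit proteins except MRPS12. Without Helicon4 100 mpk library 3 the limma adjusted p was 0.0501 for MRPL34, 0.0786 for MRPL2, 0.0864 for MRPL41 and 0.116 for MRPS12. MRPL41 also lost its call without library 2 (0.0608) or 5 (0.0582) of that group or vehicle library 6 (0.0509). MRPS12 also lost its call without library 2 (0.106), 4 (0.0646) or 5 (0.0509) of Helicon4 at 100 mpk, or without vehicle library 2, 3, 4, 5, 6 or 8 (0.0565 to 0.0681). MRPL23 stood at an adjusted p of 0.0484 and passed the threshold again in only 7 of 29 removals, with 0.138 as its highest value. MRPL23 overlaps MRPL23-AS1 on the other strand, and whether the counting used strand is not given in the sources used here.

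Among the most abundant members, MRPL51 and MRPL3, both large-subunit proteins, did not pass the test in any comparison with vehicle. MRPL51 gave a log2 fold change of -0.21 at 100 mpk (95% interval -0.67 to 0.25) and MRPL3 gave -0.21 (95% interval -0.39 to -0.02, limma adjusted p = 0.0831). MRPL3 had 172, 179, 188, 203 and 198 CPM with Helicon4 at 100 mpk, and 185 to 265 CPM (median 216) with vehicle, and libraries 1 and 2 were below every vehicle library. The large-subunit genes MRPL13 and MRPL15 and the small-subunit gene MRPS28 lie on chromosome 8, as does MYC, and none passed over vehicle at 100 mpk. Their log2 fold changes were -0.06 for MRPL13 (95% interval -0.38 to 0.27), -0.06 for MRPL15 (-0.32 to 0.20) and -0.24 for MRPS28 (-0.45 to -0.02). The paralogs gave -0.28 for MRPS18A, -0.23 for MRPS18B and -0.21 for MRPS18C at 100 mpk over vehicle, with limma adjusted p of 0.0657, 0.147 and 0.114.

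**Figure D3:**
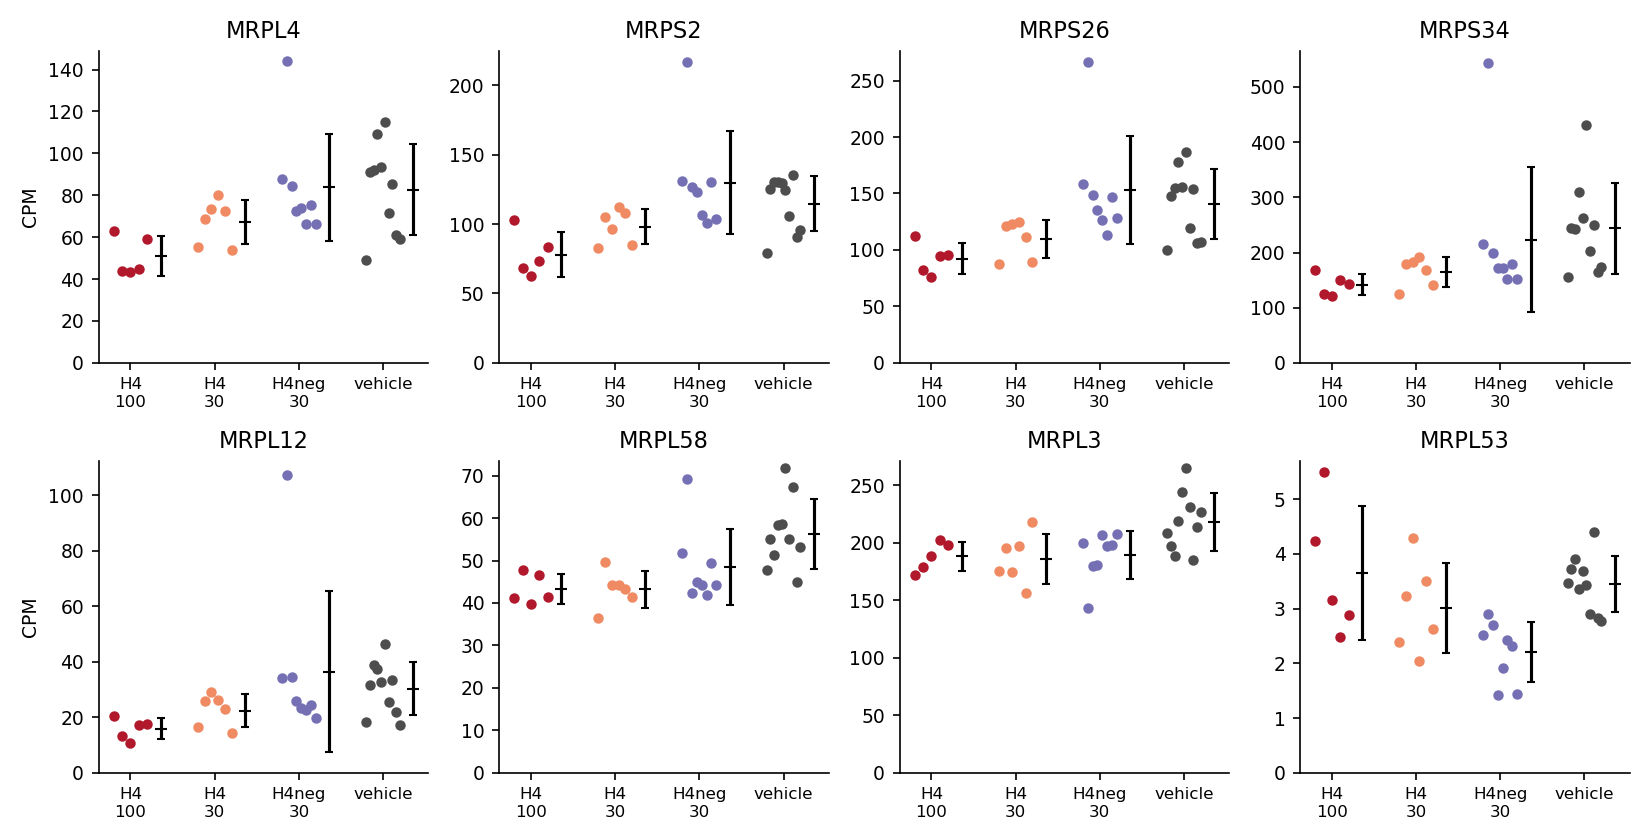
CPM of 8 members in each library (dots), by group (H4, Helicon4; H4neg, Helicon4neg; numbers give the dose in mpk), with the group mean and SD as a black bar. MRPL4, MRPS2, MRPS26, MRPS34 and MRPL12 are lowest with Helicon4 at 100 mpk, MRPL58 is low at both Helicon4 doses, and Helicon4neg library 2 is the highest library for MRPL4, MRPS2, MRPS26, MRPS34 and MRPL12.

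The members that fell at 100 mpk were those richest in G and C. Annotated transcripts of the 77 members ranged from 33.5 to 71.9% GC. In the 26 members of highest GC content (above 52.04%) the median log2 fold change was -0.35 and 10 fell, which is 38.5%. In the 25 of middle GC content the median was -0.21 and 1 fell, MRPL58, and in the 26 of lowest GC content (below 43.9%) the median was -0.03 and 0 fell. All tested genes ran the same way within the same GC limits, with medians of -0.17, 0.03 and 0.13 and lower calls in 28.004%, 11.98% and 5.41% of genes. Across the 77 members the Spearman correlation of log2 fold change with GC content was -0.70, and across 13353 tested genes it was -0.41. These correlations are across genes that share libraries, are not independent, and are given as a description.

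The same correlation across members was -0.34 for Helicon4 at 30 mpk over vehicle and 0.19 for Helicon4neg over vehicle. The libraries themselves differed in this respect. The slope of log2 values on GC content, over all tested genes, was 0.08, -0.24, -0.23, -0.14 and -0.11 per 10 percentage points in Helicon4 libraries 1 to 5 at 100 mpk. It ran from -0.14 to 0.24 with vehicle. Library 1, the one library at 100 mpk with a positive slope, reached into the vehicle range for MRPL4, MRPS2, MRPS26, MRPS34 and MRPL12. It did not for MRPL58, where libraries 2 and 4 (slopes -0.24 and -0.14) did. Library 5 reached into that range for MRPL4, MRPS2 and MRPL12. With the GC and length slopes of each library as covariates, 16 members were lower and 4 higher at 100 mpk, and 10 of the 11 calls were kept. That is 25.97% of members called and 20.8% lower, where 40.5% of all genes were called and 21.95% lower. MRPL12 was then at -0.35 (limma adjusted p = 0.0128) and the members' median at -0.06. Both slopes were computed from the same values, members included. Standard errors at 100 mpk over vehicle were at a median of 0.52 times those without these covariates. Whether GC content acts on the measured values or on the RNA in the tumors was not tested.

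**Figure D4:**
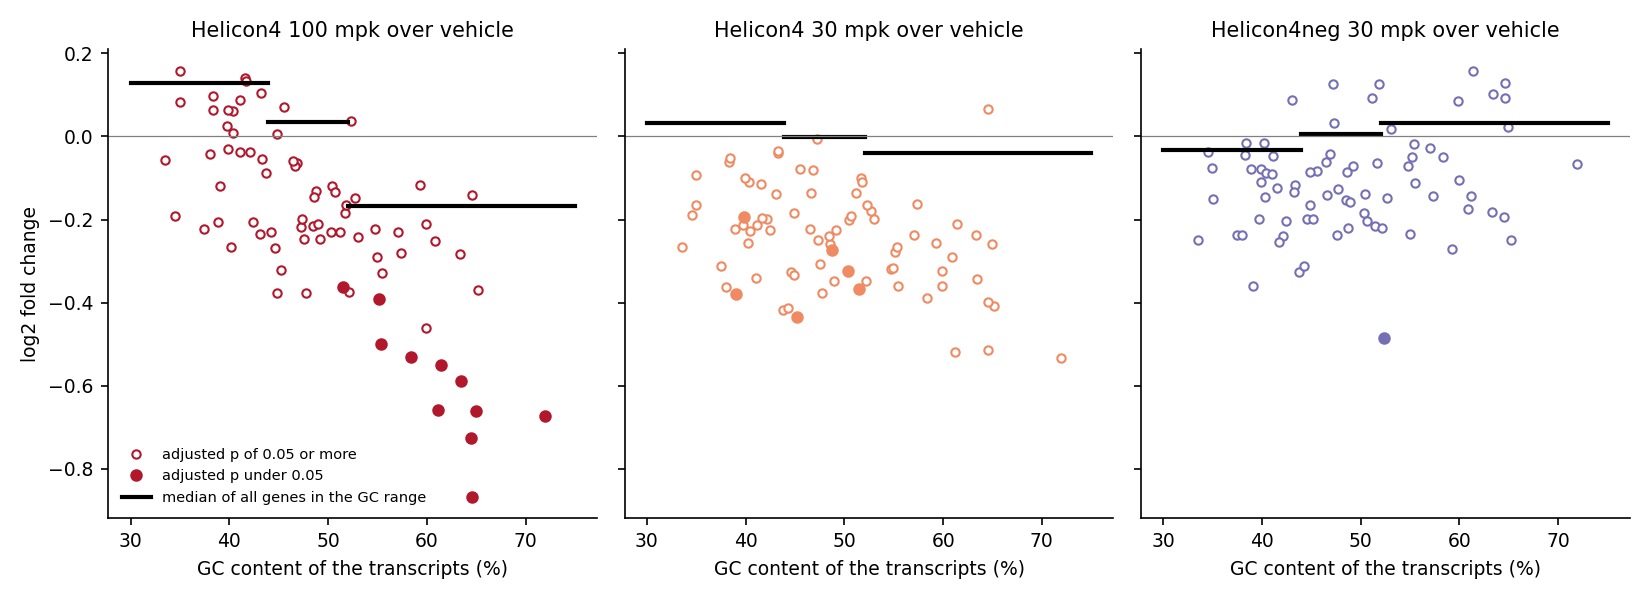
Log2 fold change over vehicle of the 77 genes (vertical axis) against the GC content of their annotated transcripts in percent (horizontal axis), with a panel for each Helicon4 dose and a panel for Helicon4neg. Black lines are the medians of all tested genes within the 3 GC ranges, and at 100 mpk 10 of 11 filled points (adjusted p under 0.05) lie above 52.04% GC.

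Helicon4 at 30 mpk was set against vehicle as the lower dose. Of the 77 members, 6 fell and 0 rose, which is 7.79% of members called, where 11.1% of all tested genes were called in either direction and 5.22% in the lower one. Nearly all members had a negative log2 fold change (76 of 77), with a median of -0.24 and a range of -0.53 to 0.07, where the median of all genes was -0.0020. The 6 were MRPL58 (-0.37, limma adjusted p = 0.0131), MRPS11 (-0.32, 0.0148), MRPL18 (-0.27, 0.0194), MRPL1 (-0.38, 0.0345), MRPL35 (-0.19, 0.0462) and MRPL48 (-0.43, 0.0479).

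MRPL58 had 36.5 to 49.7 CPM (median 43.7) with Helicon4 at 30 mpk, and 44.9 to 71.8 CPM (median 54.98) with vehicle. MRPL18, which is also known to bring 5S ribosomal RNA toward mitochondria, had 39.05 to 50.2 CPM (median 46.7) with Helicon4 at 30 mpk, and 50.4 to 67.4 CPM (median 54.3) with vehicle, and the groups did not overlap. MRPL48 did not overlap either, with 42.6 to 60.1 CPM (median 51.2) with Helicon4 at 30 mpk, and 60.4 to 87.5 CPM (median 68.1) with vehicle. MRPL58 was the one member called at both doses against vehicle, and both comparisons share the vehicle libraries.

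The count at 30 mpk rested on single libraries. Without Helicon4 30 mpk library 1, the library with the lowest member level (5.50), 0 members were called, where 7.37% of all genes were. The limma adjusted p was then 0.059 for MRPL58, 0.0651 for MRPS11, 0.0886 for MRPL18 and 0.135 for MRPL1. Without library 5, MRPL18 was at 0.0527. MRPL1 also lost its call without library 3 (0.0599) or 4 (0.0828), or without vehicle library 5, 6 or 7 (0.0525 to 0.0661). MRPL35 lost its call in 19 of 29 removals and MRPL48 in 23. The count was 3 without vehicle library 5, 6 or 7 or Helicon4 30 mpk library 3 or 4. In those refits 8.94 to 10.3% of all genes were called. It was 10 without vehicle library 9 (11.5% of all genes called). It was 30 without Helicon4neg library 2 (18.97% of all genes called), which enters through the shared estimate of the spread. In that last refit 38.96% of members fell, where 9.98% of all genes did. Without Helicon4neg library 2 and vehicle library 6, 18 members were lower, 23.4%, where 8.51% of all genes were lower.

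Helicon4neg at 30 mpk was set against vehicle to see how much of the members' change occurred without Helicon4. Of the 77 members, 1 fell and 0 rose, 1.30% of members, where 4.84% of all tested genes were called, 2.21% higher and 2.62% lower. The median log2 fold change was -0.12, with 65 of 77 negative, where the median of all genes was 0.00. The single call, MRPL53 (chromosome 2, 74471958 to 74473322), a large-subunit protein and the member of lowest mean CPM, had 1.42 to 2.90 CPM (median 2.37) with Helicon4neg, and 2.78 to 4.41 CPM (median 3.45) with vehicle. Its log2 fold change was -0.48 ± 0.12 (limma adjusted p = 0.0165). MRPL53 overlaps CCDC142 on the same strand, so reads shared by both could be assigned to either or to none.

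Helicon4neg library 2 decided this comparison for the group as a whole. It was the highest of the 8 libraries for 64 of 77 members: MRPS34 had 543 CPM there and at most 216 CPM in the other 7, and MRPL51 had 575 CPM there and at most 199 CPM in the others. MRPL3 went the other way, with 144 CPM there and at least 180 CPM in the other 7. Without it 32 members fell (41.6%), where 19.4% of all genes were called and 9.64% were lower, and the members' median log2 fold change was -0.22. Without it and vehicle library 6, 22 members were lower and 0 higher, 28.6% of members, where 7.74% of all genes were lower, and the median was -0.17. In those same libraries the medians over vehicle were -0.16 for Helicon4 at 100 mpk and -0.19 for Helicon4 at 30 mpk, and the 3 comparisons share the vehicle libraries.

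The position of a library in the group's level went with the slope of its values on gene length. Members are short, with a median deposited length of 2464 bases, against 4933 bases for all tested genes. The slope was -0.32 log2 units per doubling of length in Helicon4neg library 2 and -0.19 in vehicle library 6, the 2 libraries of highest member level, and 0.12 in Helicon4 30 mpk library 1, the library of lowest member level. With that slope as a covariate the members' medians over vehicle were -0.02 for Helicon4 at 100 mpk, -0.05 for Helicon4 at 30 mpk and -0.05 for Helicon4neg. The slope was computed from the same values, members included, so these smaller medians for short genes are not independent information. Standard errors were at a median of 0.59, 0.60 and 0.57 times those without the covariate, in that order. At 100 mpk 12 members were then lower (15.6%) and 6 higher, where 20.3% of all genes were lower and 17.9% higher, and all 11 calls were kept. Whether the slope comes from the RNA, the libraries or the tumors was not tested.

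**Figure D5:**
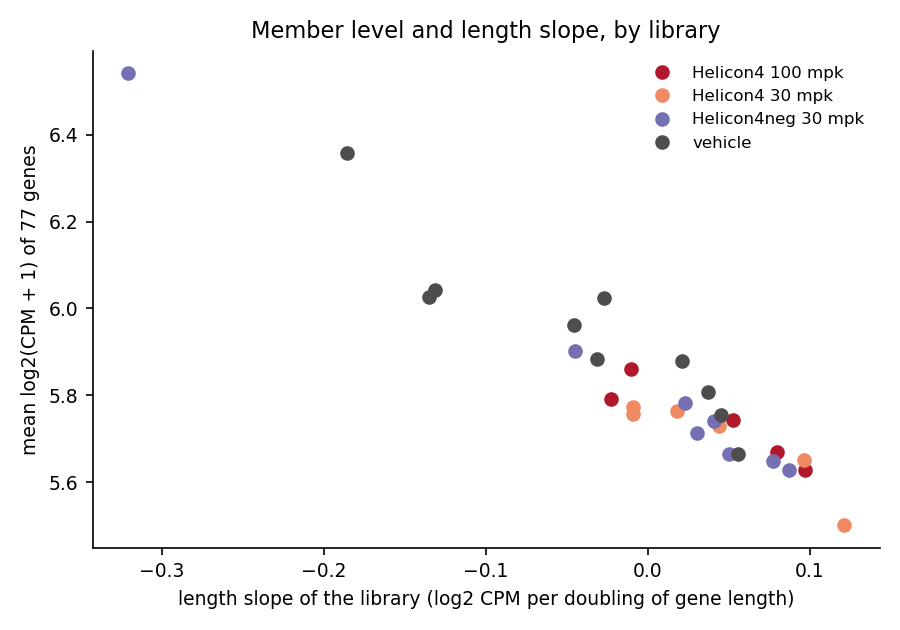
Mean log2(CPM + 1) of the 77 genes (vertical axis) against the slope of log2 values on gene length over all tested genes (horizontal axis, log2 CPM per doubling of length), one point per library, coloured by group. Libraries run from Helicon4neg library 2 at top left (slope -0.32, level 6.54) to Helicon4 30 mpk library 1 at bottom right (0.12, 5.50).

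Helicon4 and Helicon4neg were compared directly at the matched dose of 30 mpk. No member was called, 0 of 77, where 15.1% of all tested genes were called, 7.78% higher and 7.31% lower. At an unadjusted p under 0.05 there were 6 members, and edgeR and DESeq2 on recovered reads each called 1, MRPS26. The median log2 fold change was -0.13, and -0.04 without Helicon4neg library 2. MRPS26 had 87.4 to 125 CPM (median 117) with Helicon4, and 114 to 267 CPM (median 141) with Helicon4neg, overlapping. Its log2 fold change was -0.44 with a 95% interval of -0.77 to -0.12 (limma adjusted p = 0.0555). For MRPL58 the interval was -0.36 to 0.06 and for MRPL3 -0.20 to 0.16, so differences inside those limits are not shown to be absent.

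Helicon4 at 100 mpk over Helicon4neg at 30 mpk differs in dose as well as in peptide. In all, 9 members were lower and 3 higher, 15.6% of members called, where 34.8% of all tested genes were, and the median was -0.06. MRPS2 had 62.7 to 103 CPM with Helicon4 at 100 mpk, and 101 to 217 CPM (median 125) with Helicon4neg, for a log2 fold change of -0.71 ± 0.15 (limma adjusted p = 0.000613). Only Helicon4 library 1 reached into the Helicon4neg range. MRPS26 (-0.69 ± 0.17, limma adjusted p = 0.00185) and MRPL4 (-0.68 ± 0.18, 0.00429) did not overlap between these groups, and MRPL12 (-0.96 ± 0.29, 0.00961) and MRPS25 (-0.34 ± 0.09, 0.00376) overlapped. MRPL53 was the highest of the 3 that were higher (0.52 ± 0.15, limma adjusted p = 0.00597), with 4.24, 5.50, 3.15, 2.49 and 2.89 CPM with Helicon4 at 100 mpk, and 1.42 to 2.90 CPM with Helicon4neg. The other two were MRPS10 (0.26) and MRPS22 (0.21), small-subunit proteins, and both lost their call without Helicon4 100 mpk library 2, 3 or 4 (0.0505 to 0.14), MRPS22 also without Helicon4neg library 2 (0.0686), 3 (0.0746) or 5 (0.0541).

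Without Helicon4neg library 2 and vehicle library 6 the split of that comparison turned: 17 members were higher and 9 lower, and the median was 0.04. That is 33.8% of members called, where 41.8% of all genes were, 20.3% higher and 21.4% lower. Without Helicon4neg library 2 alone the count was 21, with 39.02% of all genes called. It was 6 without Helicon4 100 mpk library 2 or 3, and 7 without library 4, with 27.8, 28.03 and 29.97% of all genes called.

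Between the doses of Helicon4, 100 mpk over 30 mpk, 0 of 77 members were called, where 3.6% of all tested genes were called, 1.74% higher and 1.86% lower. At an unadjusted p under 0.05 there were 10 members, and edgeR and DESeq2 each called 0. The median was 0.05 and the range -0.47 (MRPL12) to 0.43 (MRPS6). MRPL12 had 10.7 to 20.3 CPM at 100 mpk, and 14.2 to 29.05 CPM (median 24.3) at 30 mpk, overlapping, with a 95% interval of -1.09 to 0.15. MRPL4 had 43.5 to 63.2 CPM at 100 mpk, and 54.1 to 80.2 CPM (median 70.7) at 30 mpk, with a 95% interval of -0.80 to -0.01 and a limma adjusted p of 0.281.

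Mitochondrial ribosomal proteins that carry other symbols were listed separately. Of 5, 2 fell with Helicon4 at 100 mpk over vehicle (40%, where 15.9% of all genes were lower). At 30 mpk 1 fell (20%, where 5.22% of all genes were lower). With Helicon4neg over vehicle 0 were called by limma, edgeR or DESeq2, where limma called 4.84% of all genes. PTCD3, the small-subunit pentatricopeptide protein mS39, had 146, 163, 149, 136 and 147 CPM with Helicon4 at 100 mpk. It had 149 to 186 CPM (median 169) with Helicon4 at 30 mpk, 190 to 228 CPM (median 211) with Helicon4neg and 212 to 257 CPM (median 229) with vehicle. All 11 Helicon4 libraries were below all 18 libraries of Helicon4neg and vehicle. The log2 fold change over vehicle was -0.64 ± 0.06 at 100 mpk (limma adjusted p = 3.98e-09) and -0.45 ± 0.06 at 30 mpk (limma adjusted p = 2.25e-06).

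PTCD3 also fell at 30 mpk over Helicon4neg at 30 mpk (-0.30 ± 0.06, limma adjusted p = 0.000876) and at 100 mpk over Helicon4neg (-0.49 ± 0.07, 8.89e-07). Helicon4neg over vehicle did not pass (-0.14, limma adjusted p = 0.132). Each of these 4 calls held when any 1 library was left out and with the GC and length slopes as covariates, where the value at 100 mpk over vehicle was -0.69. With the SH code as a block the value was -0.81 with a limma adjusted p of 0.0779. DAP3, a GTP-binding small-subunit protein, was lower than with Helicon4neg at both doses (-0.27 at 100 mpk, limma adjusted p = 0.0119, and -0.30 at 30 mpk, 0.00716), and over vehicle it gave -0.17 and -0.20 with adjusted p of 0.111 and 0.0796. GADD45GIP1, a large-subunit protein, fell at 100 mpk over vehicle (-0.74, limma adjusted p = 0.0256) but not without Helicon4 100 mpk library 2 (0.0582) or 3 (0.08).

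Among genes that build the mitochondrial ribosome, more fell than rose with Helicon4 at 100 mpk over vehicle. Of 29 assembly and ribosomal RNA modification factors, 8 fell and 1 rose, with a median of -0.21. That is 9 of 29 called (31%), where 30.2% of all genes were. Lower calls made up 27.6% of the list, where 15.9% of all genes were lower. At 30 mpk 0 were called by limma, edgeR or DESeq2, where limma called 11.1% of all genes. RBFA, a small-subunit assembly factor, fell by 0.49 on the log2 scale (limma adjusted p = 0.000424), METTL17 by 0.31 (0.00193), MRM1, an RNA methyltransferase, by 0.55 (0.00962) and DHX30, an RNA helicase, by 0.29 (0.00883). DHX30 was at 0.0669 without Helicon4 100 mpk library 2. MRM1 fell with Helicon4neg as well (-0.52, limma adjusted p = 0.0238), and lost that call without vehicle library 5 (0.0517) or Helicon4neg library 4 (0.0711) or 8 (0.0707).

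Of 17 mitochondrial translation factors, 2 rose and 2 fell at 100 mpk over vehicle, 23.5% against the 30.2% of all genes. MTIF3, an initiation factor, had 44.02, 52.6, 47.9, 45.4 and 40.6 CPM with Helicon4 at 100 mpk, and 31.1 to 42.3 CPM (median 35.7) with vehicle, and 4 of the 5 were above every vehicle library. It rose by 0.36 ± 0.08 on the log2 scale (limma adjusted p = 0.000586), and over Helicon4 at 30 mpk by 0.40 (limma adjusted p = 0.00571). It fell with Helicon4neg over vehicle (-0.28, limma adjusted p = 0.0121). PDF, a peptide deformylase, fell by 0.65 (0.00826) and TUFM, an elongation factor, by 0.50 (0.0165). PDF was at 0.0568 without Helicon4 100 mpk library 2 and TUFM at 0.0607 without library 3. GFM2, a ribosome-recycling factor, rose by 0.39 (limma adjusted p = 0.0485), a call lost in 20 of 29 removals.

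Of 20 genes for charging mitochondrial tRNAs, 4 fell and 1 rose at 100 mpk over vehicle. That is 25% called, where 30.2% of all genes were, and 20% lower, where 15.9% of all genes were. The riser, named after its value was seen, was GATB, part of the enzyme that makes mitochondrial glutaminyl-tRNA (0.26, limma adjusted p = 0.0268). The 4 that fell were the synthetases TARS2 (-0.45, limma adjusted p = 4.40e-05), CARS2 (-0.51, 0.000253), FARS2 (-0.83, 0.000296) and VARS2 (-0.36, 0.0233). TARS2 and CARS2 also fell with Helicon4neg over vehicle (-0.25 and -0.37). VARS2 lost its call without Helicon4 100 mpk library 2 (0.0554), 3 (0.078) or 4 (0.0538), and TARS2 its call with Helicon4neg without library 8 of that group (0.0637). Of 10 genes for transcribing and copying mitochondrial DNA, 2 fell and 0 rose at 100 mpk over vehicle. That 20% is below the 30.2% of all genes called in either direction and above the 15.9% that were lower. The 2 were POLRMT, the mitochondrial RNA polymerase (-0.50, limma adjusted p = 0.00385), and C10orf2, the helicase also called TWNK (-0.37, 0.00222).

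The 13 messenger RNAs encoded by mitochondrial DNA, the products of this machinery's own genome, were not called in any of the 6 comparisons (0 of 13 each). That held for limma, edgeR and DESeq2. Over vehicle, limma called 30.2% of all tested genes at 100 mpk, 11.1% at 30 mpk and 4.84% with Helicon4neg. Over Helicon4neg it called 34.8% at 100 mpk and 15.1% at 30 mpk, and between the doses 3.6%. At an unadjusted p under 0.05 limma gave 0 of these 13 messenger RNAs at either Helicon4 dose over vehicle and 1 with Helicon4neg over vehicle. Their median log2 fold changes over vehicle were -0.05 at 100 mpk, -0.04 at 30 mpk and -0.16 with Helicon4neg, and 9, 9 and 12 of 13 were negative. Of 9 regulators, 1 rose and 1 fell at 100 mpk over vehicle (22.2%, where 30.2% of all genes were called). At 30 mpk 1 rose (11.1%, where 11.1% of all genes were called). With Helicon4neg over vehicle 1 of the 9 rose by limma (11.1%, where 4.84% of all genes were called) and 3 by DESeq2. PPARGC1A, a coactivator of mitochondrial biogenesis, had 20.4, 24.5, 25.1, 31.3 and 26.8 CPM with Helicon4 at 100 mpk. With vehicle it had 13.4 to 20.3 CPM (median 16.1), and the groups did not overlap. It rose by 0.60 ± 0.13 at 100 mpk (limma adjusted p = 0.000523) and by 0.41 at 30 mpk (0.0233), the second lost without Helicon4 30 mpk library 1 (0.105) or 6 (0.0658). Its relative PPRC1 fell at 100 mpk (-0.45, limma adjusted p = 0.0014). MYC itself gave -0.02 at 100 mpk over vehicle, with a 95% interval of -0.25 to 0.22, and 0.03 at 30 mpk, with an interval of -0.19 to 0.25. For scale, of 85 cytosolic ribosomal protein genes 7 fell at 100 mpk over vehicle (8.24%, where 15.9% of all genes were lower) and the median was -0.22. At 30 mpk 1 of them fell (1.18%, where 5.22% of all genes were lower), with a median of -0.23.

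With the SH code as a block, 0 members were called in any comparison by limma and the members' median at 100 mpk over vehicle was 0.09, with standard errors at a median of 3.35 times those without the block. All tested genes lost calls as well, with 1.05% called at 100 mpk over vehicle. The direction of 9 of the 11 members that fell at 100 mpk turned positive under that block, and MRPS2 and MRPL58 stayed negative. Under the block, vehicle and Helicon4 are linked only through Helicon4neg. The links are 2 vehicle libraries in SH7080 and 1 Helicon4 30 mpk library each in SH7081 and SH7083. Helicon4neg library 2 lies in SH7080, where the members' median was 0.15 with it and -0.01 without it. These directions therefore rest on few libraries.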

How the data were processed

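Tumor RNA from 29 COLO320DM xenograft libraries was measured by RNA-seq. The deposited table holds 13492 genes with a length and 1 signal column per library, a scaled CPM whose column sums differ between libraries. Reads were trimmed, aligned to GRCh38 and counted with Trimmomatic 0.39, STAR 2.7.7a, featureCounts (Subread 2.4.2) and edgeR 4.0.2, per the submitters' processing notes, which give the tools with no role or order. The annotation, strand setting and any separation of mouse reads are not given in the sources used here. Per the labels' protocols, libraries were polyA-selected and stranded.

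From the deposited signal, the 13373 genes that reached 1 CPM in 5 or more libraries were fitted as log2(CPM + 1) with limma 3.58.1 (trend and robust, R 4.3.3), all 4 groups in 1 model, two-sided, with Benjamini-Hochberg adjustment over all genes and a threshold of 0.05. A fold change on this scale understates the change of low genes. Taking the lowest value of a library as 1 read (20 libraries) or, where that failed, as a small whole number of reads up to 7 (9 libraries) made 100% of values whole within 0.05. Depths in those 9 libraries rest on that choice. On these reads edgeR 4.0.16 and DESeq2 1.42.0 were run as alternatives. The limma step was tested on simulated data. Columns of no known sample numbered 0. Gene positions and GC content came from GENCODE on GRCh38, in which all 79 rows matched, and promoters from RefSeq (GRCh38.p14).

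Members and lists were chosen with earlier results of these data known. Named members were the 5 called genes of smallest adjusted p in each direction and comparison, the 3 of highest and lowest mean CPM, the MRPS18 paralogs, MRPL12, MRPL58 and the members on chromosome 8. From each other list, up to 4 genes of smallest adjusted p were named, and GATB and MYC are named outside that rule. Alternatives were another pseudocount, no filter, TMM factors, the compared groups alone, replicate or SH code blocks, slope covariates and leaving out libraries. The GC covariate was added after seeing the data.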

Additional observations from a re-analysis of the deposited data

Results flagged for a closer look

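Libraries were looked at for a value far from the rest of its group, in 104 groups of values, and 23 stood apart, where chance gives about 1 in 20. Helicon4neg library 2 accounted for 18 of them. Its mean member level was 6.54, with 5.90 next. Its length slope was -0.32, with -0.05 next, and its GC slope 0.40, with 0.11 next.

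In the same library MRPL4 had 144 CPM (88.0 CPM next), MRPS2 217 CPM (131 CPM next), MRPS26 267 CPM (159 CPM next) and MRPS34 543 CPM (216 CPM next). MRPL12 had 107 CPM (34.4 CPM next), MRPL51 575 CPM (199 CPM next), MRPL13 124 CPM (61.9 CPM next) and MRPL15 162 CPM (93.5 CPM next). MRPL58 had 69.1 CPM, MRPS11 24.7 CPM, MRPS25 116 CPM, MRPS28 8.70 CPM, MRPS18B 214 CPM and MRPS18C 20.3 CPM, each the highest of 8. MRPL3 had 144 CPM there, the lowest of 8, with 180 CPM next.

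Vehicle library 6 had the highest MRPL35 (99.7 CPM, with 88.3 CPM next), MRPL51 (388 CPM, with 243 CPM next) and MRPL13 (109 CPM, with 76.2 CPM next) of its group. MRPL15 stood apart at 106 CPM in Helicon4 100 mpk library 2, with 90.6 CPM next, and at 68.9 CPM in Helicon4 30 mpk library 1, the lowest of its group, with 80.1 CPM next. The cause of these values was not tested.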

How the results depend on the processing

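Counts of members called were 11 for Helicon4 100 mpk over vehicle, 6 for Helicon4 30 mpk over vehicle, 1 for Helicon4neg over vehicle, 0 for Helicon4 over Helicon4neg at 30 mpk, 12 for Helicon4 100 mpk over Helicon4neg and 0 for 100 over 30 mpk. Leaving out Helicon4neg library 2 together with vehicle library 6 gave 24, 18, 22, 1, 26 and 4 in that order, with 39.5, 16.4, 15.2, 19.3, 41.8 and 7.87% of all genes called. With the SH code as a block all 6 were 0, with at most 1.41% of all genes called. With the length slope they were 18, 4, 10, 5, 35 and 10, with 38.2, 16.8, 17.8, 25.7, 49.3 and 14.96% of all genes called. With GC and length slopes they were 20, 5, 6, 11, 22 and 0, with 40.5, 20.4, 18.02, 33.1, 41.8 and 5.53% of all genes called. Fitting only the compared groups gave 10 for Helicon4 30 mpk over vehicle (13.2% of all genes called). It gave 7 for Helicon4 100 mpk over Helicon4neg (28.2%). A pseudocount of 0.1 gave 2 for Helicon4neg over vehicle (4.89%), where DESeq2 gave 3 (8.26%). For Helicon4 over Helicon4neg at 30 mpk edgeR gave 1 (15.6%) and DESeq2 gave 1 (18.0%). The cause of these differences was not tested.

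With the SH code as a block, values at 100 mpk over vehicle turned positive for MRPS34 (0.085), MRPL4 (0.083), MRPL2 (0.14), MRPS26 (0.050), MRPS12 (0.28), MRPL34 (0.0042), MRPL41 (0.47), MRPL23 (0.46), MRPL12 (0.58), POLRMT (0.12), RBFA (0.024), VARS2 (0.14), TUFM (0.17), GADD45GIP1 (0.27) and MRM1 (0.14). GFM2 turned negative (-0.41), as did MRPS10 (-0.0081) and MRPS22 (-0.090) at 100 mpk over Helicon4neg. These values rest on the few libraries that link the groups within a code. The cause was not tested.

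Each library was left out in turn. Counts over vehicle were then 5 to 25 for Helicon4 100 mpk, 0 to 30 for Helicon4 30 mpk and 1 to 32 for Helicon4neg. Over Helicon4neg they were 0 to 1 for Helicon4 30 mpk and 6 to 21 for Helicon4 100 mpk, and between doses 0. All genes called in that order were 22.2 to 39.3, 7.37 to 18.97, 2.94 to 19.4, 11.2 to 17.2, 27.8 to 39.02 and 1.56 to 5.95%. For 100 mpk over vehicle the 25 came without Helicon4neg library 2 (39.3% of all genes called) and the 5 without Helicon4 100 mpk library 3 (22.2% of all genes called). Helicon4neg over vehicle gave 2 without vehicle library 4 or 9, Helicon4neg library 1, Helicon4 30 mpk library 1 or Helicon4 100 mpk library 1, 2 or 5. Helicon4 over Helicon4neg at 30 mpk gave 1 without vehicle library 1 or 6 or Helicon4neg library 6.

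Whether replicate numbers pair the samples was not settled. Over 35 same-numbered pairs the correlation of deviations ran from -0.70 to 0.52, and 15 exceeded 0.1. Pairs of different number were not set beside them, so these values cannot decide it. With the replicate block the counts were 16, 8, 1, 0, 15 and 0 in the order above. Genes of few reads, such as MRPL53, are limited by depth as well as by the number of libraries.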
